A study of Mus musculus with 6 samples.

Results

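The transcription factor genes that govern hematopoietic stem cells were followed in mouse bone marrow with and without the SNORD113-114 cluster. They are Tal1, Lmo2, Gata2, Erg, Hlf, Mecom, Meis1, Prdm16 and Mllt3, chosen by name, and all 9 were found among the 47729 genes of the table. All 9 passed the filter on low counts, which kept 15686 genes. The 6 bulk RNA-seq libraries were 3 from mice lacking the cluster, a run of small nucleolar RNA genes in an imprinted region (cluster KO), and 3 from wildtype mice. The labels do not state strain, age, sex, how the cluster was deleted or whether marrow cells were sorted. The stated design is 3 animals a genotype, but no label links any library to an animal; the p-values therefore reflect only how much the libraries vary.

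These factors act in overlapping circuits that keep blood stem cells undifferentiated. TAL1 binds E-box DNA as a dimer with an E protein, GATA2 binds GATA sites, and LMO2 binds no DNA itself but bridges both through the adaptor LDB1. ERG, of the ETS family, joins them with FLI1, RUNX1 and LYL1 on shared enhancers of stem and progenitor cells, a group known as the heptad. HLF, MECOM, MEIS1 and PRDM16 are regulators of stem cell maintenance from other protein families, and MLLT3 reads acylated histones and brings in elongation factors and the methyltransferase DOT1L. Several also work outside stem cells: TAL1 and LMO2 in erythroid cells, TAL1, ERG and MEIS1 in megakaryocytes, and GATA2 in mast cells.

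The libraries held 17663369 to 23459168 gene counts, so that a count of 0 would allow up to 0.126 to 0.170 CPM (3 counts, counting error only). CPM are counts scaled to library size, here adjusted by the trimmed mean of M-values (TMM). Stem cell surface markers were present in each library, with Kit at 243 to 363 CPM, Ly6a at 193 to 275 CPM and Procr at 20.5 to 62.5 CPM. Markers of separate blood lineages were present too, among them the neutrophil gene Ngp at 955 to 4457 CPM and the erythroid gene Car1 at 3578 to 4738 CPM, so the RNA came from mixed cells. In such bulk samples, fewer cells of a type and less RNA per cell cannot be told apart. The deletion itself could not be verified from these counts: Rian, a long non-coding transcript of the region, had raw counts of 9, 6 and 3 in cluster KO and 11, 5 and 38 in wildtype libraries, and Meg3, its neighbour, had 72, 57 and 52 in cluster KO and 50, 26 and 62 in wildtype libraries.

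Tal1 and Gata2 were lower and Mllt3 was slightly higher in cluster KO marrow, while the other 6 factors did not pass the test. Of all tested genes 27.9% were called, 15.9% as higher and 12.1% as lower (edgeR quasi-likelihood test, Benjamini-Hochberg adjusted p under 0.05), beside 1 and 2 of the 9 factors. The median log2 fold change of the 9 was -0.0052, and that of all tested genes was 0.0024. The libraries of the genotypes did not overlap for Tal1, Gata2, Mllt3 and Lmo2, 4 of 9, where 46.0% of all tested genes had no overlap. The summed level of the 9 genes was 1542, 1555 and 1558 CPM in cluster KO and 1482, 1548 and 1541 CPM in wildtype, with Lmo2 as the largest contributor. As counts, the factors were therefore near the background of this comparison.

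**Figure D1:**
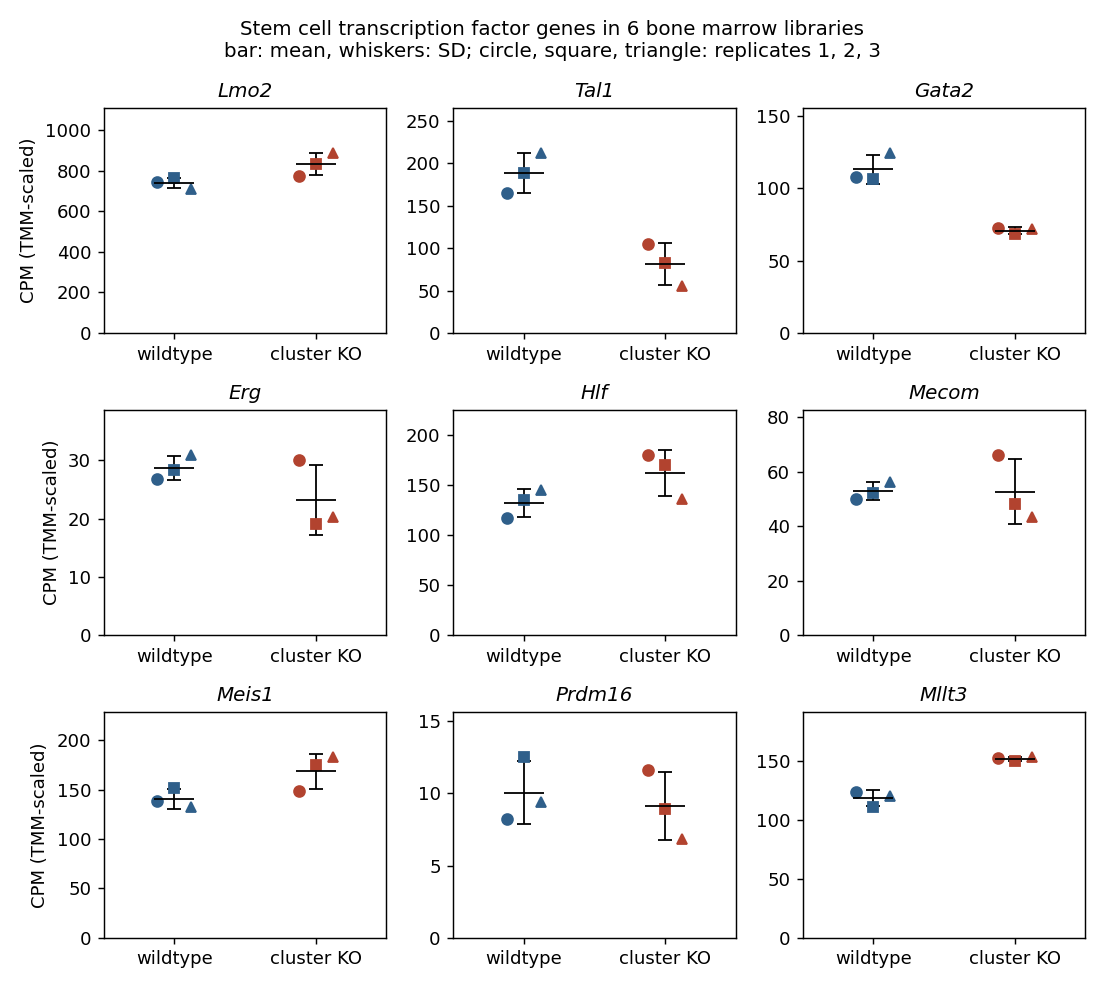
CPM of the 9 factor genes (vertical axes from 0) in wildtype (blue) and cluster KO (red) libraries, with symbols for replicates; bars are means and whiskers the SD of 3 libraries. Tal1 lies between 55.4 and 105 CPM in cluster KO and between 165 and 213 CPM in wildtype, and the cluster KO points of Mecom span the wildtype points.

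The promoters of the factors that passed the test are shown, since binding sites of the same factors can be looked for there. RefSeq windows on GRCm38.p6, 300 bases each, matched 8 of the 9 genes, 14 windows in all; Lmo2 had no entry. The 250 bases upstream of the first transcribed base are printed 5′ to 3′ on the gene's strand, with matches to the motifs named after them in capitals.
Tal1, chr4:115056176-115056425, plus strand: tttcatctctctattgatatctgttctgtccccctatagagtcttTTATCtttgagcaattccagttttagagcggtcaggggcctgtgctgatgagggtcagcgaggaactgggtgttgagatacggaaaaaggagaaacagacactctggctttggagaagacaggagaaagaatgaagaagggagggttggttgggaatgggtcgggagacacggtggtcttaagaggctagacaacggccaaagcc
Gata2, chr6:88193641-88193890, plus strand: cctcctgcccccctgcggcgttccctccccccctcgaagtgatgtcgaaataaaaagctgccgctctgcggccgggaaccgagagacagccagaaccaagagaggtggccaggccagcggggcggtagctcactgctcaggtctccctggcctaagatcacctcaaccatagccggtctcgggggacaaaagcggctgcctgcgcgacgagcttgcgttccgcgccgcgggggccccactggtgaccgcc
Mllt3, chr4:88033408-88033657, minus strand: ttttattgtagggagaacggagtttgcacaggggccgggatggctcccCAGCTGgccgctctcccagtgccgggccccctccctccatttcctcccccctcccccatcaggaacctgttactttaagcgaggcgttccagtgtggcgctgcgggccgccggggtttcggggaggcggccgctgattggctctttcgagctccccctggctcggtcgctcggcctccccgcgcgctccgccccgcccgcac
The motifs were GATAA (GATA factors), CANNTG (the E-box), AGGAAG (ETS factors), TGACAG (MEIS) and TTANGTAA (HLF), searched on both strands of the whole windows, with 0 overlaps between matches of different motifs. The capitals in Tal1 are a GATAA on the opposite strand and those in Mllt3 an E-box, while the Gata2 stretch held no match. GATAA was found in 4 of the 14 windows and in 25.4% of all 32851 promoter windows, and CANNTG in 9 and 72.3%. AGGAAG was in 1 and 35.4%, TGACAG in 3 and 19.2%, and TTANGTAA in 0 and 2.32%. A match is a run of letters and not a shown binding site.

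Tal1 (chromosome 4, 115056426 to 115071755, GRCm38), the basic helix-loop-helix factor, changed most of the 9. It measured 105, 82.4 and 55.4 CPM in cluster KO and 165, 188 and 213 CPM in wildtype libraries. Every cluster KO library was below every wildtype library, with 80.9 ± 24.8 CPM against 189 ± 23.6 CPM (SD, n = 3 each). This was a log2 fold change of -1.22 (SE 0.21, edgeR adjusted p = 0.00382). The call stood with each library left out in turn, at -1.46 to -1.01 on the log2 scale. It did not stand with the percentage of multiply aligned reads as a covariate, where the value was 0.28 (edgeR adjusted p = 0.769); that percentage and the genotype cannot be told apart.

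Gata2 (chromosome 6, 88193891 to 88207032), the zinc finger factor needed to form and keep stem cells, fell with little spread among the cluster KO libraries. Its levels came to 72.7, 68.0 and 71.5 CPM in cluster KO and 108, 106 and 124 CPM in wildtype libraries. The groups did not overlap, at 70.7 ± 2.43 CPM and 113 ± 10.05 CPM (SD, n = 3 each). Its change was -0.67 on the log2 scale (SE 0.12, edgeR adjusted p = 0.00447), and -0.72 to -0.60 with each library left out. Gata1, the paralog that takes over from Gata2 as erythroid cells mature, measured 97.8, 158 and 224 CPM in cluster KO and 147, 143 and 130.2 CPM in wildtype libraries (log2 fold change 0.19, SE 0.24, edgeR adjusted p = 0.579). Gata1 passed as higher without cluster KO 1 (0.44, edgeR adjusted p = 0.0442) and was at -0.13 without cluster KO 3. Per length, Gata2 relative to Gata1 was 0.336, 0.195 and 0.144 in cluster KO and 0.332, 0.335 and 0.432 in wildtype libraries. The first cluster KO library lay within the wildtype range of that ratio and the other two below it. Gata3, a GATA factor of T cells, rose (log2 fold change 0.54, SE 0.16, edgeR adjusted p = 0.0322), though not without cluster KO 1 (adjusted p = 0.0591), cluster KO 2 (adjusted p = 0.0865), cluster KO 3 (adjusted p = 0.0506), wildtype 1 (adjusted p = 0.0554), wildtype 2 (adjusted p = 0.0938) or wildtype 3 (adjusted p = 0.109).

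Lmo2 (chromosome 2, 103957986 to 103981878), the bridging LIM-only protein, did not pass the test. It measured 775, 833 and 888 CPM in cluster KO and 744, 762 and 709.6 CPM in wildtype libraries. Each cluster KO library lay above each wildtype library by a narrow margin. The difference of 0.17 (log2, SE 0.09, edgeR adjusted p = 0.193) did not pass and was -0.16 once trends with transcript length and GC content were taken out (edgeR adjusted p = 0.144; 0.0832 to 0.811 over every setting tried). Within a library, Tal1 relative to Lmo2 per length was 0.0670, 0.0489 and 0.0309 in cluster KO and 0.110, 0.122 and 0.148 in wildtype libraries, with no overlap.

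Erg (chromosome 16, 95359169 to 95586593), the ETS factor, measured 30.0, 19.1 and 20.3 CPM in cluster KO and 26.8, 28.3 and 30.9 CPM in wildtype libraries. One cluster KO library lay within the wildtype range and the other two below it. Its difference was -0.31 (log2, SE 0.20, edgeR adjusted p = 0.268). Without the first cluster KO library it was -0.55 and passed (edgeR adjusted p = 0.0274; 0.0274 to 0.901 over the settings tried).

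Hlf (chromosome 11, 90336536 to 90390895), a PAR-type leucine zipper factor that marks stem cells, measured 180.2, 169.9 and 136 CPM in cluster KO and 117, 136 and 145 CPM in wildtype libraries. The highest levels were in cluster KO, but its lowest library overlapped the wildtype range. The difference was 0.29 (log2, SE 0.14, edgeR adjusted p = 0.145). Without the third cluster KO library it was 0.40 and passed (edgeR adjusted p = 0.0466; 0.0172 to 0.365 over the settings tried).

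Meis1 (chromosome 11, 18879817 to 19018985), the TALE homeodomain partner of HOX proteins, measured 149, 175 and 183 CPM in cluster KO and 138, 152 and 132 CPM in wildtype libraries. One cluster KO library lay within the wildtype range and the other two above it. The difference was 0.26 (log2, SE 0.12, edgeR adjusted p = 0.133). It passed without the first cluster KO library (0.34, edgeR adjusted p = 0.0408) and with length and GC trends taken out (0.49, adjusted p = 0.0248; 0.0248 to 0.822 over the settings tried).

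Mecom and Prdm16 encode related zinc finger proteins, both with forms that carry a PR domain. Mecom (chromosome 3, 29951296 to 30548008) measured 66.1, 48.1 and 43.5 CPM in cluster KO and 49.8, 52.1 and 56.3 CPM in wildtype libraries. Its cluster KO libraries lay on both sides of all wildtype libraries, with means of 52.6 ± 11.9 CPM and 52.8 ± 3.29 CPM (SD, n = 3 each). The difference was -0.0052 (log2, SE 0.17, edgeR adjusted p = 0.985), and -0.21 to 0.11 with each library left out. Prdm16 (chromosome 4, 154316125 to 154636873), the scarcest of the 9, measured 11.6, 8.92 and 6.88 CPM in cluster KO and 8.23, 12.5 and 9.43 CPM in wildtype libraries, from 148 to 254 raw counts a library. The groups overlapped, and the difference of -0.14 (log2, SE 0.27, edgeR adjusted p = 0.731) ran from -0.35 to 0.050 with each library left out.

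Mllt3 (chromosome 4, 87769925 to 88033364), known from human cells to sustain stem cells in culture, was the only one of the 9 that rose. It measured 153, 150.3 and 153 CPM in cluster KO and 124, 111 and 121 CPM in wildtype libraries. The cluster KO libraries were close together (152 ± 1.72 CPM) and all above the wildtype libraries (119 ± 6.89 CPM, SD, n = 3 each). The rise was 0.36 on the log2 scale (SE 0.11, edgeR adjusted p = 0.0324). It missed the edgeR threshold without cluster KO 2 (adjusted p = 0.109), cluster KO 3 (adjusted p = 0.0504), wildtype 1 (adjusted p = 0.0627), wildtype 2 (adjusted p = 0.145) or wildtype 3 (adjusted p = 0.0800), at 0.31 to 0.39 on the log2 scale with each library left out. With length and GC trends taken out it was 0.21 (edgeR adjusted p = 0.138; 0.00629 to 0.621 over the settings tried).

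**Figure D2:**
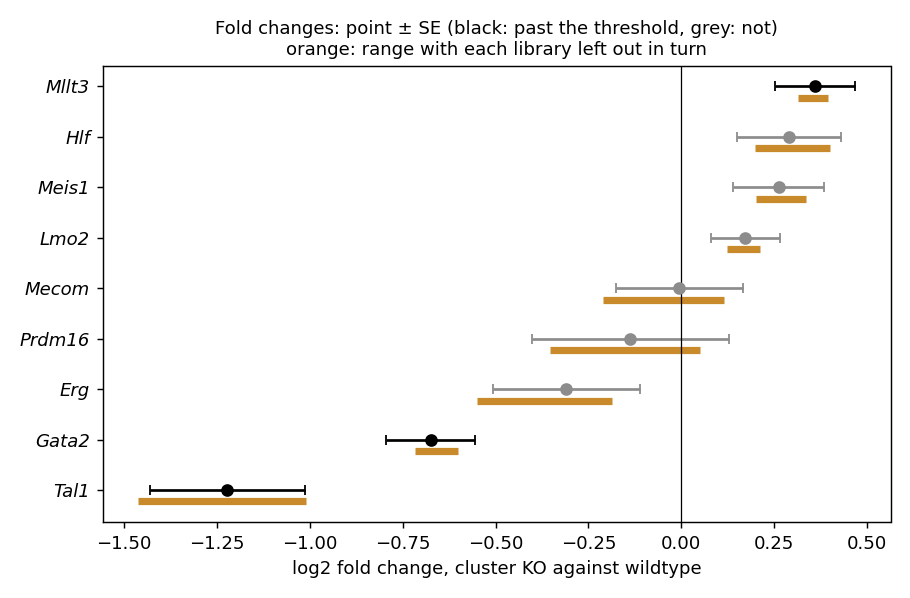
Log2 fold change of each factor gene (horizontal axis, cluster KO against wildtype) with its SE, black where it passed the test and grey where not, and in orange the range with each library left out. Tal1 at -1.22 and Gata2 at -0.67 stay below 0, and the ranges of Mecom and Prdm16 cross it.

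Levels can be compared between genes only per length, here as CPM per kilobase of merged exons. Merged exons can be far longer than a transcript. They cover 12004 bases for Mllt3 and 12427 for Mecom, where the median coding transcript has 1375 and 3031. The order of the genes below therefore depends on the length used. In wildtype marrow Lmo2 stood highest at 341 ± 12.2, followed by Tal1 at 43.1 ± 5.40, Gata2 at 20.9 ± 1.86 and Hlf at 19.8 ± 2.09 CPM per kilobase (SD, n = 3 each). Below them came Meis1 at 13.4 ± 0.950, Mllt3 at 9.89 ± 0.574, Erg at 8.27 ± 0.594, Mecom at 4.25 ± 0.265 and Prdm16 at 1.08 ± 0.237 CPM per kilobase. Gata2 and Hlf were the only neighbours in that order whose wildtype libraries overlapped. In cluster KO marrow Hlf came next after Lmo2, at 24.3 ± 3.45 CPM per kilobase, ahead of Tal1 at 18.5 ± 5.67, Meis1 at 16.01 ± 1.69, Gata2 at 13.1 ± 0.450 and Mllt3 at 12.7 ± 0.144. There the libraries of Hlf and Tal1, of Tal1 and Meis1, and of Gata2 and Mllt3 overlapped. Some relatives were scarcer than the factor in wildtype marrow, with Meis3 at 0.321 ± 0.264, Dbp at 1.503 ± 0.227 and Tef at 2.09 ± 0.210 CPM per kilobase. Others had higher means, with Gata1 at 57.4 ± 3.58 beside Gata2, and Fli1 at 17.6 ± 2.61 and Spi1 at 11.4 ± 2.43 beside Erg. The wildtype libraries of Spi1 and Erg overlapped, with Spi1 at 8.82 and Erg at 8.91 CPM per kilobase in wildtype 3.

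**Figure D3:**
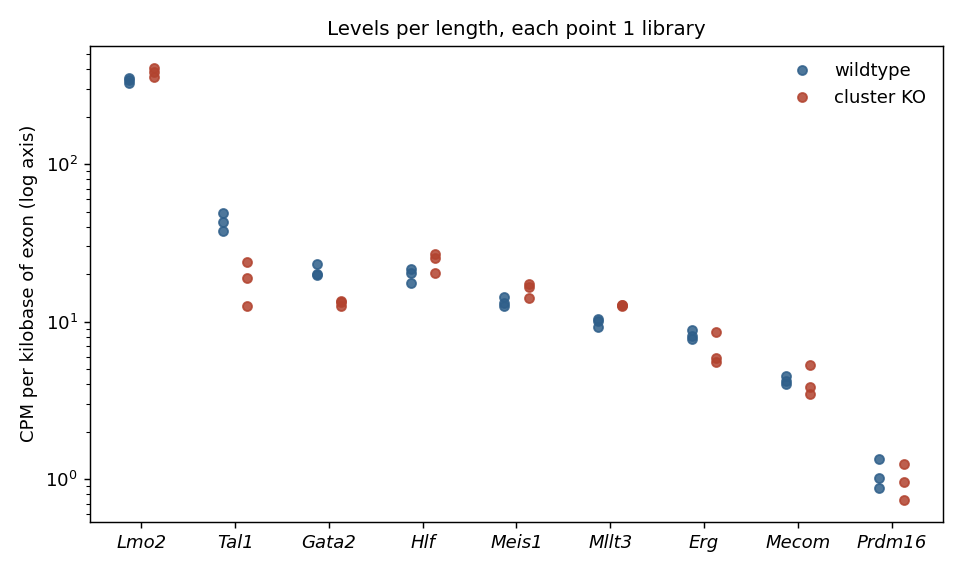
CPM per kilobase of exon on a log axis for each factor (horizontal axis, ordered by wildtype mean), 1 point per library, blue wildtype and red cluster KO. Lmo2 stands above the rest at 328 to 409.9, Prdm16 is lowest at 0.738 to 1.34, and the cluster KO points of Tal1 and Gata2 lie below their wildtype points.

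Partners of the factors were taken from curated lists. Counts of this and each later list are to be read beside the shares of all tested genes. Of all tested genes 15.9% were higher, 12.1% were lower and 46.0% had no overlap between the genotypes. Some genes stand on several lists, so the counts of the lists are not independent. Of the heptad 3 of 7 fell, with a median log2 fold change of -0.31. Beside Tal1 and Gata2 this was Lyl1, the closest relative of Tal1, with 25.3, 22.1 and 21.9 versus 31.1, 37.6 and 47.0 CPM in cluster KO and wildtype (log2 fold change -0.74, SE 0.18, edgeR adjusted p = 0.0148). Lyl1 missed the edgeR threshold without cluster KO 2 (adjusted p = 0.0658), wildtype 2 (adjusted p = 0.0501) or wildtype 3 (adjusted p = 0.0667), over a range of 0.00152 to 0.0667. Runx1 was at -0.24, SE 0.13 (log2, edgeR adjusted p = 0.190), and Fli1, the other ETS factor of the heptad, at -0.0038, SE 0.15 (log2, edgeR adjusted p = 0.987).

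Among 18 partners of the TAL1, LMO2 and GATA complexes 8 fell and 4 rose, with a median of -0.30. Ldb1, the adaptor of the complex, fell, with 66.0, 59.9 and 54.0 versus 85.1, 97.2 and 96.9 CPM in cluster KO and wildtype (log2 fold change -0.63, SE 0.13, edgeR adjusted p = 0.00760). Also lower were the corepressor gene Cbfa2t3 (-0.84, SE 0.16), the GATA cofactor gene Zfpm1 (-0.88, SE 0.13) and the E protein gene Tcf3 (-0.60, SE 0.12), on the log2 scale. Genes of LDB1-binding proteins split, with Ssbp4 (0.98, SE 0.20) and Ssbp2 (0.54, SE 0.12) higher and Ssbp3 (-0.59, SE 0.17) lower. Gfi1b, a repressor gene of erythroid cells and megakaryocytes, had 142, 229 and 337 versus 159.6, 105 and 76.7 CPM and rose (log2 fold change 1.05, SE 0.31, edgeR adjusted p = 0.0317) although its groups overlapped. Gfi1b missed the edgeR threshold without cluster KO 2 (adjusted p = 0.0794), cluster KO 3 (adjusted p = 0.111), wildtype 2 (adjusted p = 0.108) or wildtype 3 (adjusted p = 0.124). Ssbp2 missed it without wildtype 2 (edgeR adjusted p = 0.0584). Ssbp3 missed it without cluster KO 2 (edgeR adjusted p = 0.0884), cluster KO 3 (edgeR adjusted p = 0.0576), wildtype 1 (edgeR adjusted p = 0.0554), wildtype 2 (edgeR adjusted p = 0.0846) or wildtype 3 (edgeR adjusted p = 0.107). Of this list, 4 fell without cluster KO 2, wildtype 2 or wildtype 3, 1 rose without wildtype 2 and 2 rose without cluster KO 2, cluster KO 3 or wildtype 3.

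Of 13 tested partners of MEIS1, HOX genes among them, 2 rose. The number that rose was 0 to 2 with each library left out. Hoxa7 (0.82, SE 0.20) and Hoxa10 (0.77, SE 0.23) rose. Hoxa7 missed the edgeR threshold without cluster KO 2 (adjusted p = 0.0857), wildtype 1 (adjusted p = 0.0534) or wildtype 3 (adjusted p = 0.0602), and Hoxa10 without cluster KO 2 (adjusted p = 0.0774), cluster KO 3 (adjusted p = 0.103), wildtype 1 (adjusted p = 0.104) or wildtype 2 (adjusted p = 0.102). Hoxa9, a HOX gene well known beside Meis1, had 74.4, 81.6 and 78.1 versus 64.8, 55.6 and 67.7 CPM. Its groups did not overlap, as in 46.0% of all tested genes, and it did not pass (log2 fold change 0.32, SE 0.13, edgeR adjusted p = 0.0938).

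Among the relatives of HLF, Nfil3, a repressor that binds the same DNA sites, rose (1.77, SE 0.39) and so did Dbp (1.10, SE 0.25), on the log2 scale. Nfil3 was low throughout, with 3.84, 8.96 and 9.66 versus 2.08, 1.81 and 2.66 CPM in cluster KO and wildtype, and Dbp missed the edgeR threshold without cluster KO 2 (adjusted p = 0.0552). Of 12 tested PRDM genes and corepressors, Prdm4 alone passed, as lower (-0.70, SE 0.19), and it missed without cluster KO 2 (adjusted p = 0.101), wildtype 1 (adjusted p = 0.0544), wildtype 2 (adjusted p = 0.0822) or wildtype 3 (adjusted p = 0.0677) in edgeR.

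Of 17 tested partners of MLLT3 2 rose and 2 fell, with a median of -0.37. Dot1l, the histone methyltransferase that MLLT3 recruits, had 40.5, 27.5 and 22.3 versus 49.4, 62.8 and 56.5 CPM in cluster KO and wildtype (log2 fold change -0.90, SE 0.21, edgeR adjusted p = 0.0131). Ell2, an elongation factor gene, fell (-0.60, SE 0.18), and Cdk9, the elongation kinase gene (0.62, SE 0.16), and Cbx8, a Polycomb gene (1.06, SE 0.25), rose. Dot1l missed the edgeR threshold without cluster KO 2 (adjusted p = 0.0626), wildtype 2 (adjusted p = 0.0589) or wildtype 3 (adjusted p = 0.0502), Ell2 without cluster KO 3 (adjusted p = 0.0861), wildtype 1 (adjusted p = 0.0662), wildtype 2 (adjusted p = 0.0595) or wildtype 3 (adjusted p = 0.143), Cdk9 without cluster KO 2 (adjusted p = 0.0747), wildtype 2 (adjusted p = 0.0639) or wildtype 3 (adjusted p = 0.0677) and Cbx8 without cluster KO 2 (adjusted p = 0.0574) or wildtype 3 (adjusted p = 0.0524). Of this list, 0 fell without wildtype 2 or wildtype 3, 1 fell without cluster KO 2, cluster KO 3 or wildtype 1, 8 fell without cluster KO 1, 0 rose without cluster KO 2 or wildtype 3 and 1 rose without wildtype 2.

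Of 15 ETS genes 3 rose and 2 fell. Spi1, the PU.1 gene of myeloid and B cells, had 72.9, 104 and 118 versus 36.7, 31.9 and 23.8 CPM in cluster KO and wildtype (log2 fold change 1.67, SE 0.21, edgeR adjusted p = 0.00189). Ets1 (0.96, SE 0.18) and Elk3 (0.65, SE 0.14) rose, and Elf2 fell (-0.92, SE 0.22). Elk3 missed the edgeR threshold without cluster KO 2 (adjusted p = 0.0507) and Elf2 without cluster KO 2 (adjusted p = 0.0680), wildtype 2 (adjusted p = 0.0522) or wildtype 3 (adjusted p = 0.0575). Of this list, 0 fell without cluster KO 2, wildtype 2 or wildtype 3 and 1 fell without cluster KO 3. Of 24 further stem cell regulators 5 fell and 1 rose, the Notch target gene Hes1 (1.19, SE 0.16). Msi2, an RNA-binding protein gene of stem cells, had 108, 79.5 and 62.1 versus 143, 152 and 202 CPM (log2 fold change -0.99, SE 0.21, edgeR adjusted p = 0.00769). Nfia (-0.95, SE 0.17) and Foxo3 (-0.69, SE 0.16) fell as well, Foxo3 not without wildtype 3 (adjusted p = 0.0569) in edgeR. Of this list, 2 fell without wildtype 3, 3 fell without wildtype 2 and 2 rose without cluster KO 1.

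**Figure D4:**
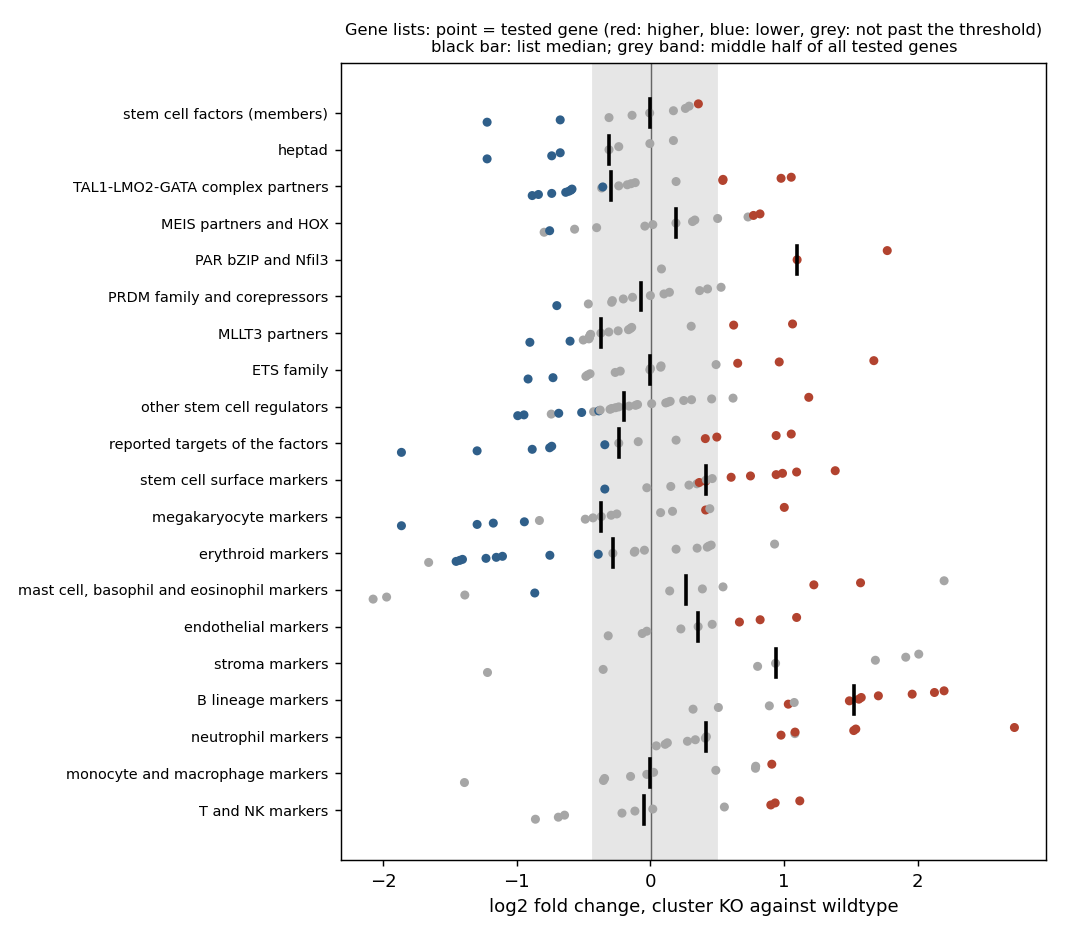
Log2 fold change (horizontal axis) of each tested gene in the factor list, the partner lists and the marker lists (red higher, blue lower, grey not past the threshold); black bars are list medians and the grey band runs from the lower to the upper quartile of all tested genes, -0.43 to 0.50. The partners of TAL1, LMO2 and GATA show 8 blue and 4 red points, and the B lineage markers have a median of 1.52.

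Genes reported elsewhere as targets of the factors went both ways, with 6 of 13 lower and 4 higher. Pf4, the platelet factor gene, had 103, 61.0 and 47.2 versus 253, 310.4 and 205 CPM in cluster KO and wildtype (log2 fold change -1.86, SE 0.27, edgeR adjusted p = 0.00251). Itga2b, an integrin chain of megakaryocytes, had 18.3, 16.2 and 17.8 versus 40.0, 44.0 and 44.7 CPM (log2 fold change -1.30, SE 0.15, edgeR adjusted p = 0.00119). Kit, the stem cell factor receptor gene, fell (log2 fold change -0.34, SE 0.11, edgeR adjusted p = 0.0467), a call missed in edgeR without cluster KO 2 (adjusted p = 0.130), cluster KO 3 (adjusted p = 0.109), wildtype 1 (adjusted p = 0.101), wildtype 2 (adjusted p = 0.132) or wildtype 3 (adjusted p = 0.127). With length and GC trends taken out Kit was at -0.068 (edgeR adjusted p = 0.588). Flt3, a receptor gene of lymphoid-primed progenitors, rose (log2 fold change 0.94, SE 0.15, edgeR adjusted p = 0.00297). Of this list, 1 rose without cluster KO 2, wildtype 2 or wildtype 3 and 2 rose without cluster KO 3 or wildtype 1. The levels of Pf4, Itga2b, Kit and Flt3 did not overlap between the genotypes, nor did those of 46.0% of all tested genes.

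Cell type markers moved beside the factors, and their part in the results was not tested. Of all tested genes 15.9% were higher and 12.1% lower. Of 15 tested megakaryocyte markers 4 fell and 2 rose, with Nfe2 (1.002, SE 0.15) higher and Gp1bb (-0.94, SE 0.21) lower; Gp1bb missed the edgeR threshold without wildtype 2 (adjusted p = 0.0558). Their summed level overlapped between the genotypes, at 652, 741 and 826 CPM in cluster KO and 745, 795 and 678 CPM in wildtype, and Tubb1 had 0 counts in at least 1 library. Of the megakaryocyte list, 1 rose without cluster KO 2, cluster KO 3, wildtype 1, wildtype 2 or wildtype 3. Of 19 erythroid markers 8 fell, and 4 to 6 with each library left out. Of this list, 4 fell without wildtype 2 or wildtype 3 and 4 rose without cluster KO 1. Ermap (-1.15, SE 0.13), Hba-a1 (-1.41, SE 0.23) and Hba-a2 (-1.45, SE 0.25) were among them, the last pair being near-identical copies that may share reads. The erythroid sum also overlapped, at 7906, 9837 and 11400.3 CPM in cluster KO and 9855, 9421 and 9099 CPM in wildtype, most of it from Car1 and Car2.

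Among 10 tested mast cell, basophil and eosinophil markers Cpa3 (1.22, SE 0.16) and Hdc (1.57, SE 0.35) rose and Il1rl1 fell (-0.87, SE 0.21), a call missed in edgeR without cluster KO 2 (adjusted p = 0.0686), wildtype 2 (adjusted p = 0.0548) or wildtype 3 (adjusted p = 0.0675). Their sum was 228, 269 and 235 CPM in cluster KO and 194, 123 and 139 CPM in wildtype, and 8 of the 14 listed genes, Ms4a2, Fcer1a and Prss34 among them, had 0 counts in at least 1 library. Of 9 tested endothelial markers Esam (1.09, SE 0.21), Emcn (0.82, SE 0.19) and Pecam1 (0.67, SE 0.16) rose, while Cdh5, Sox17 and Flt4 had 0 counts in at least 1 library. Emcn missed the edgeR threshold without cluster KO 2 (adjusted p = 0.0579) or wildtype 3 (adjusted p = 0.0592) and Pecam1 without cluster KO 2 (adjusted p = 0.0550), wildtype 1 (adjusted p = 0.0548) or wildtype 3 (adjusted p = 0.0511). The endothelial sum was 147, 186 and 197 CPM in cluster KO and 101, 122 and 113 CPM in wildtype. Of 7 tested stroma markers, which had a median log2 fold change of 0.94 and whose sum was 128, 59.5 and 19.4 CPM in cluster KO and 15.6, 58.0 and 27.3 CPM in wildtype, Col1a2 came nearest to the threshold (log2 fold change -1.22, SE 0.42, edgeR adjusted p = 0.0516; 0.0272 to 0.163 over the settings tried). Sparc, the gene at that median, was at 0.94, SE 0.56 (edgeR adjusted p = 0.241), and Col1a1, Dcn, Kitl and Bglap had 0 counts in at least 1 library. Of this list, 1 fell without cluster KO 1 or wildtype 1 and 1 rose without wildtype 2.

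Of 15 stem cell surface markers 8 rose and 1 fell, with a median of 0.42, and 5 to 9 rose with each library left out. Of this list, 0 fell without cluster KO 2, cluster KO 3, wildtype 1, wildtype 2 or wildtype 3 and 5 rose without wildtype 2 or wildtype 3. Procr (1.38, SE 0.16), Esam, listed among the endothelial markers too, and Cd27 (0.99, SE 0.13) were among those higher. Their sum was 1571, 1640.1 and 1704 CPM in cluster KO and 1302, 1245 and 1254 CPM in wildtype, above wildtype in each cluster KO library. Of 12 B lineage markers 8 rose, among them Cd79a (2.20, SE 0.11), Igll1 (1.58, SE 0.10) and Cd79b (1.56, SE 0.11), with a sum of 2058, 2129 and 2031 CPM in cluster KO and 633, 630.2 and 673 CPM in wildtype. Of 13 neutrophil markers 5 rose, among them Ngp (1.52, SE 0.18), Ltf (1.54, SE 0.19), Mmp8 (2.72, SE 0.35) and Lcn2 (1.08, SE 0.20), with an overlapping sum of 21046, 12326 and 11173 CPM in cluster KO and 6559.6, 9682 and 12432 CPM in wildtype. Cd68 (0.91, SE 0.23) rose among 10 monocyte and macrophage markers, and Trbc1 (0.93, SE 0.12), Lck (0.90, SE 0.14) and Trbc2 (1.12, SE 0.28) among 10 tested T and NK markers. In edgeR Cd68 missed without cluster KO 2 (adjusted p = 0.0740) or wildtype 3 (adjusted p = 0.0597) and Trbc2 without cluster KO 2 (adjusted p = 0.0510), wildtype 2 (adjusted p = 0.0687) or wildtype 3 (adjusted p = 0.0627).

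Read composition also differed between the genotypes. As a percentage of all reads, those with more than 1 alignment were at 14.7, 13.9 and 13.4% in cluster KO and 16.1, 16.3 and 16.8% in wildtype libraries, and reads outside genes 10.1, 8.59 and 7.29% in cluster KO and 10.03, 10.5 and 11.1% in wildtype libraries. Tal1 levels ran in the order of the first of these percentages over all 6 libraries, as did those of 5.18% of all tested genes. Within the genotypes, Hlf and Mecom followed it too in 6 of 6 pairs of libraries, as did 8.73% of tested genes, and Gata2 in 4 of 6. These orders are descriptions, and the part of read composition was not tested by the design.

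Covariate fits were added after the data were seen. With the percentage of reads outside genes as covariate, 3.71 and 3.14% of genes were higher and lower. There Tal1 was at -0.63 (SE 0.11, edgeR adjusted p = 0.0123) and Gata2 at -0.61 (SE 0.13, adjusted p = 0.0268), while Hlf passed at 0.59 (SE 0.12, adjusted p = 0.0172) and Mllt3 did not at 0.35 (SE 0.11, adjusted p = 0.0904). With the percentage of multiply aligned reads as covariate, 0.121 and 0.0191% of genes were higher and lower. There Tal1 was at 0.28 (SE 0.26, edgeR adjusted p = 0.769) and Gata2 at -0.44 (SE 0.26, adjusted p = 0.599). That percentage separates the genotypes completely, so it and the genotype cannot be told apart in these 6 libraries. Over every setting, adjusted p ran from 3.7e-07 to 0.769 for Tal1 and from 1.4e-05 to 0.599 for Gata2.

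**Figure D5:**
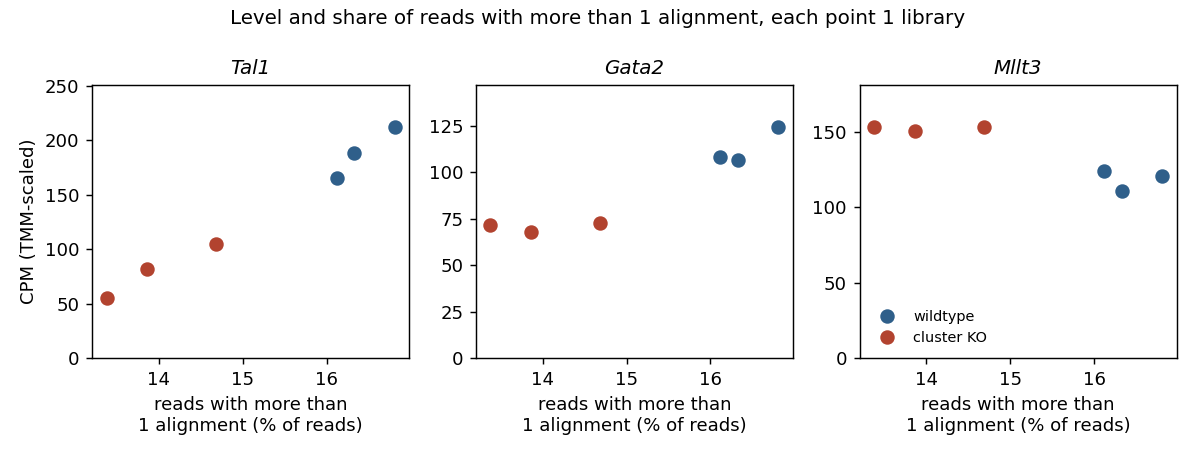
CPM of Tal1, Gata2 and Mllt3 (vertical axes from 0) against the percentage of reads with more than 1 alignment (horizontal axes), 1 point per library, wildtype blue and cluster KO red. Tal1 climbs through all 6 libraries from 55.4 to 213 CPM, and the cluster KO points of Gata2 stay between 68.0 and 72.7 CPM.

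For each factor that passed, the genes with the most similar profile had the smallest root mean square difference in log2(CPM + 0.5) over the 6 libraries, after each profile was centred on its wildtype mean, among 9453 genes. For Tal1 these included Lsm14b (0.0692) and Map2k7 (0.0952). Lsm14b had 4.57, 3.70 and 2.04 versus 7.92, 9.12 and 10.1 CPM in cluster KO and wildtype. For Gata2 they were Camta1 (0.0405), the DNA methyltransferase gene Dnmt3b (0.0414) and Mogs (0.0448). For Mllt3 they were Tmem242 (0.0347), Leprotl1 (0.0493) and Mrpl46 (0.0509).

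Of the nearest tested genes beside Tal1, Stil, 13230 bases away, was at -0.15, SE 0.21 (edgeR adjusted p = 0.629), and Pdzk1ip1, 16953 bases away, rose (log2 fold change 0.50, SE 0.11, edgeR adjusted p = 0.0106). Pdzk1ip1, opposite in direction to Tal1, had 309, 299.96 and 258 versus 216, 206 and 193 CPM and missed the edgeR threshold without cluster KO 2 (adjusted p = 0.0579) or wildtype 2 (adjusted p = 0.0522). Beside Gata2, Rpn1 was at 0.36, SE 0.18 (edgeR adjusted p = 0.156, and 0.0163 without cluster KO 1) and Eefsec rose (log2 fold change 0.90, SE 0.28, edgeR adjusted p = 0.0379), a call missed in edgeR without cluster KO 2 (adjusted p = 0.122), cluster KO 3 (adjusted p = 0.126), wildtype 1 (adjusted p = 0.0553), wildtype 2 (adjusted p = 0.138) or wildtype 3 (adjusted p = 0.110). Beside Mllt3, Acer2 was at 0.28, SE 0.31 (edgeR adjusted p = 0.535) and Focad at -0.050, SE 0.17 (edgeR adjusted p = 0.855). No annotated gene overlaps Tal1, Gata2, Mllt3, Hlf or Erg. The protein-coding gene 4931422A03Rik overlaps Lmo2 on the opposite strand but shares 0 exon bases with it. The libraries carry no strand, so reads in exons shared by genes on opposite strands cannot be told apart. Meis1 shares 896 exon bases (8.51% of its exon length) with the antisense gene Gm16140. It also shares 1029 (9.77%) with Gm37818, which lies on the same strand as Meis1. Mecom shares 81 with Mecomos, and Prdm16 109 with B230104I21Rik, which had 0 counts in all libraries.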

How the data were processed

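Per the labels' protocols, whole cell extracts of bone marrow were made into poly(A) libraries with a Nextera kit that keeps no strand, and the 6 libraries were sequenced as a pool. The submitters' processing notes name bcl2fastq, TopHat2, HTSeq and mm10; their versions and the counting mode are not stated there. The authors deposited a table of raw counts by Ensembl gene. Its 5 summary rows stayed out of library sizes and tests; on average they held 14.0% (cluster KO) and 16.4% (wildtype) of reads as multiply aligned, 8.65 and 10.5% as outside genes, and 2.77 and 2.93% as ambiguous. Names, positions and lengths came from GENCODE M21 on GRCm38, which matched 47310 genes.

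Groups and replicate numbers came from sample titles. All genes were compared with edgeR 4.0.16 in R 4.3.3: TMM, filterByExpr (minimum count 10), quasi-likelihood with robust estimation and genotype as the only term, and Benjamini-Hochberg adjustment at 0.05. The SE is the log2 fold change divided by the square root of F. The script was tested on simulated data, where 53.5% of 2-fold and 81.25% of 4-fold changes were recovered. A gene that did not pass is therefore not shown to be unchanged. Within each genotype, counts varied beyond sampling noise in every pair of libraries.

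Other settings were DESeq2 1.42.0 and its size factors, limma-voom (limma 3.58.1), other filters, no robust estimation, length and GC offsets, a replicate block, each library left out and, added after the data were seen, 2 covariates. The factors, gene lists and the rule for named genes were chosen with earlier results of these data known. That rule took the 9 factors, up to 4 called genes of smallest p from each list (or else its first by p), the 3 genes most like each called factor, genes overlapping a factor, and Rian and Meg3. Other genes, neighbours included, were chosen after their values were seen. Some genes that the rule names are not reported here.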

Additional observations from a re-analysis of the deposited data

How the results depend on the processing

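Tal1 and Gata2 stayed lower and past the threshold in the 15 other settings planned. With the percentage of multiply aligned reads as covariate, Tal1 reversed to 0.28 and Gata2 was -0.44, neither called; Meis1 was -0.27, Mecom 1.01, Prdm16 0.95, Erg 0.72, Lmo2 -0.17, Hlf 1.05 and Mllt3 0.36, with 19 and 3 genes of the table and 0 and 0 factors called higher and lower. With the percentage of reads outside genes as covariate, Hlf was 0.59, Mecom 0.38, Prdm16 0.32, Erg 0.066 and Mllt3 0.35, and 582 and 492 genes were called. With length and GC trends removed, Mecom was 0.060, Prdm16 0.092, Lmo2 -0.16, Mllt3 0.21 (no longer called) and Meis1 0.49 (called). Mecom was 0.0028 with DESeq2 size factors, 0.020 in DESeq2 and 0.020 without a filter. The cause was not tested for any of these. With each library left out, 1258 to 3151 genes were higher and 742 to 2579 lower, and 0 to 2 factors higher and 2 to 3 lower. The counts were 1258 and 742 leaving out cluster KO 2, 1412 and 944 leaving out wildtype 2, and 1303 and 860 leaving out wildtype 3. Log2 fold changes then ran from 0.20 to 0.40 for Hlf, -0.21 to 0.11 for Mecom, 0.20 to 0.34 for Meis1, -0.35 to 0.050 for Prdm16, -0.55 to -0.19 for Erg, 0.12 to 0.21 for Lmo2 and 0.31 to 0.39 for Mllt3.

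The labels do not say that replicate numbers pair the libraries. Deviations from the group means correlated at -0.12, 0.02 and -0.09 for libraries of the same number. For libraries of different numbers the correlations were -0.035 to 0.13. With 3 libraries a genotype these values cannot settle whether libraries were paired. The replicate block gave 1331 genes higher and 865 lower and 0 factors higher, with Mllt3 at 0.36. With block and length and GC trends removed these were 1148, 869 and 0, with Mecom at 0.035, Prdm16 at 0.10, Lmo2 at -0.16 and Mllt3 at 0.21. Stil was 0.014 and Focad 0.24 with length and GC trends removed, and 0.027 and 0.25 with the block added. The transcript 2610001A08Rik inside Meis1 was -0.019 in limma-voom, -0.0019 with a CPM filter and -0.0057 with the block. With each library left out it ran from -0.19 to 0.19, Acer2 from -0.041 to 0.44, Focad from -0.15 to 0.0052, 2900018N21Rik from -0.24 to 0.058, Mecomos from -0.82 to 0.23, Meg3 from -0.0075 to 0.52, Gata1 from -0.13 to 0.44 and Fli1 from -0.10 to 0.12. Fli1, at 0 to within its SE, was 0.0045 with DESeq2 size factors, 0.023 in DESeq2, 0.0013 in limma-voom, 0.023 without a filter and 0.0011 with the block. Gfi1b missed the threshold in DESeq2 (adjusted p = 0.0628). Among refits of the other named genes, 1205 kept direction and side of the threshold, 139 lost the call, 10 gained it and 24 changed sign. Calls lost with length and GC trends removed were those of Hoxa10 (0.130), Prdm4 (0.0855), Cdk9 (0.132), Ell2 (0.191), Mrpl46 (0.432), Eefsec (0.0587), Pdzk1ip1 (0.0772), Kit (0.588), Gata3 (0.297) and Gfi1b (0.0794), with edgeR adjusted p in brackets. Depth limits Prdm16 most, with 148 to 254 counts a library.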
